A study of Mus musculus with 6 samples.

Results

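The circadian clock genes Arntl, Clock, Per1, Per2, Per3, Cry1 and Cry2, the output transcription factors Dbp and Tef, and the clock-controlled deubiquitinase gene Usp2 were described in whole mouse ileum, the distal stretch of small bowel. The 10 genes were taken by symbol from the array's annotation, 1 probe set each, out of 19938 genes with a probe set of their own. Total RNA of 6 mice was measured on Affymetrix mouse Gene 1.0 ST arrays, 1 array per mouse, and values are log2 signals, so that a difference of 1 is a factor of 2. The 3 control mice carried Villin-CreERT2, a Cre recombinase that tamoxifen activates and that the Villin promoter directs to intestinal epithelium. The 3 mice labelled Gata6 KO carried Villin-CreERT2 together with loxP-flanked Gata6, which encodes a zinc finger factor of the GATA family. Both groups received tamoxifen on 5 consecutive days at an age of 6 to 8 weeks, and the ileum was taken 28 days later. Muscle, connective tissue and immune cells of the whole ileum do not use the Villin promoter, and in such bulk tissue fewer cells of a type cannot be told apart from less RNA per cell. The labels give no time of day at which the tissue was taken, so daily phase was not modelled.

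In the molecular clock, the proteins ARNTL (also called BMAL1) and CLOCK pair and activate genes through the E-box, CACGTG. Among their targets are the Per and Cry genes, whose proteins feed back to inhibit ARNTL and CLOCK, and Nr1d1 and Nr1d2, which encode REV-ERB repressors of Arntl. DBP, TEF and HLF, the PAR bZIP factors, activate genes through the D-box, while NFIL3 represses through the same element. In intestine, as in other peripheral tissues, Arntl transcript peaks at the opposite time of day from Dbp, Nr1d1 and the Per genes. Usp2 encodes a protease that removes ubiquitin from other proteins, and its transcript is rhythmic in many tissues.

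Promoter stretches of Usp2, Cry1, Per1, Per3 and Ciart are shown to set the E-box and D-box letters beside the expression values. They are the 250 bases before the annotated start in RefSeq, build GRCm38.p6, written 5′ to 3′ along the gene. Capitals mark any match to 1 of 6 searched motifs: the E-box CACGTG, the D-box TTATGTAA or TTACGTAA, the nuclear receptor element AGGTCA, the GATA site AGATAA or TGATAA, the cAMP element TGACGTCA and the glucocorticoid element. Both strands were read, so TGACCT marks AGGTCA on the other strand; no matches overlapped in the genes shown. Usp2 is shown as the member that fell, from chr9:44084670-44084919 on the plus strand, a start that lies within the annotated gene span of 44067021 to 44095627. Cry1 is from chr10:85185055-85185304 and Per3 from chr4:151044666-151044915, both on the minus strand, and Per1 is from chr11:69098699-69098948 on the plus strand. Ciart, a repressor of ARNTL and CLOCK that is no member but belongs to the same loops, is from chr3:95882229-95882478 on the minus strand.
Usp2: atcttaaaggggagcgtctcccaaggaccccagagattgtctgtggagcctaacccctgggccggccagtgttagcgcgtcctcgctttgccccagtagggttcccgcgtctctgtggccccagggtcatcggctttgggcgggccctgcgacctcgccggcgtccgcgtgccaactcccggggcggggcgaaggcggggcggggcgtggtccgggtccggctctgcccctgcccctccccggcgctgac
Cry1: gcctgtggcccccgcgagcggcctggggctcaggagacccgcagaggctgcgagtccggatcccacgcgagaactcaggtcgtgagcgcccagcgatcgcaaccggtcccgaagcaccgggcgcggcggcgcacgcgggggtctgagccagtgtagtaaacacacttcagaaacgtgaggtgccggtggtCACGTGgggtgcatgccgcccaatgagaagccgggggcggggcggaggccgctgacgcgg
Per1: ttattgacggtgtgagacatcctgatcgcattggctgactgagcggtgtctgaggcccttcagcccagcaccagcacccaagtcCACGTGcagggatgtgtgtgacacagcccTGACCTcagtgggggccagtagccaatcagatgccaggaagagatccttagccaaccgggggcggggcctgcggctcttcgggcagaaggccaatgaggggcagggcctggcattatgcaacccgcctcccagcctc
Per3: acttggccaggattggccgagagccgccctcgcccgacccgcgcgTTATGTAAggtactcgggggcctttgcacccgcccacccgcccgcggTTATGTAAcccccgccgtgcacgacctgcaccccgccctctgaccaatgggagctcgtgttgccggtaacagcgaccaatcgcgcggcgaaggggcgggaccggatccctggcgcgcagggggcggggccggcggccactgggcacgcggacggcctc
Ciart: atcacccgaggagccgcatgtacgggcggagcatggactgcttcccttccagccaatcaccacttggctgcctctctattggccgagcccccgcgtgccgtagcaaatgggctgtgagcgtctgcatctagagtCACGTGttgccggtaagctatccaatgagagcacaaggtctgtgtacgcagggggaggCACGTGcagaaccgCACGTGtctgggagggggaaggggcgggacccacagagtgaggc

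The window of Usp2 holds none of the searched letters, and neither do those of Dbp and Nr1d1, which are not shown. Cry1 holds a single E-box 60 bases before its start, Per1 an E-box and an AGGTCA element, and Per3 a pair of D-boxes. A second annotated start of Per1, not shown, has a window with none of the searched letters. Ciart holds 3 E-boxes. The table has 14 windows, each running from 250 bases before a start to 50 after it, for 9 of the 10 members; Per2 has none. The E-box was found in 4 of these 14 windows, those of Cry1, Per1 and both starts of Tef, against 7.15% of all 32851 windows of the same length. The D-box was found in 1 of 14, that of Per3, against 1.06% of all windows. AGGTCA was found in 3 of 14, in Arntl, Clock and Per1, against 16.3%. The GATA site was found in 1, that of Tef, against 18.6%, and the cAMP and glucocorticoid elements in none, against 1.79% and 0.00913%. These are matches of letters in a short window and not tested binding sites.

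Over all probe sets, 2 arrays correlated at 0.987 to 0.992 within a group and at 0.980 to 0.984 between groups. Gata6 itself read 6.31, 6.33 and 6.50 in controls against 6.93, 6.81 and 6.86 in the arrays labelled Gata6 KO, 0.49 higher on the log2 scale (SE 0.08, limma adjusted p = 0.0162). The target transcript was thus not lower, and the position of its probe set among the deleted exons was not checked, as no source used here gives it. Directions below are therefore those of the arrays labelled Gata6 KO. Control replicate 3 read 2.31 for Xist and 5.30 for the Y-linked gene Eif2s3y, against 7.39 or more and 0.61 or less on the other arrays, so that it carries the signals of a male and the others those of females. Nothing in the labels says more about how the mice of a group were related. The p-values set the group difference against the spread between mice within the groups, moderated by that of all genes. Over all genes, 995 were higher and 648 lower in the KO-labelled arrays.

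Usp2 was lower in the KO-labelled arrays, and was the member that passed the test; Cry1, described next, passed under some other settings. Its log2 signal was 6.04, 5.85 and 5.84 in control mice and 5.10, 5.15 and 5.16 in the KO-labelled arrays. The groups were separated by a gap wider than the range within either, and the 3 KO-labelled arrays lay within 0.06 of each other. The log2 fold change was -0.77 (SE 0.08, n = 3 mice a group), which is 1.71-fold lower, with a limma adjusted p of 0.00282 and a 95% confidence interval from -0.97 to -0.58. It was the 1 member of 10 called lower, where 3.25% of all genes were called lower and 8.24% in either direction. No member was called higher, where 4.99% of all genes were. The unadjusted p was under 0.05 for 2 of the 10 members, Usp2 and Cry1, and for 4928 of all 19938 genes. Leaving out each array in turn gave fold changes of Usp2 from -0.81 to -0.71 and adjusted p from 0.00811 to 0.0207. With the mean of the smooth muscle genes described below as a covariate the fold change was -0.78 (SE 0.15) and the call was lost (adjusted p = 0.107). That mean did not overlap between the groups, so this fit cannot well separate it from the group. The probe set is annotated to 3 RefSeq mRNAs of Usp2, so the forms of its transcript cannot be told apart.

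**Figure D1:**
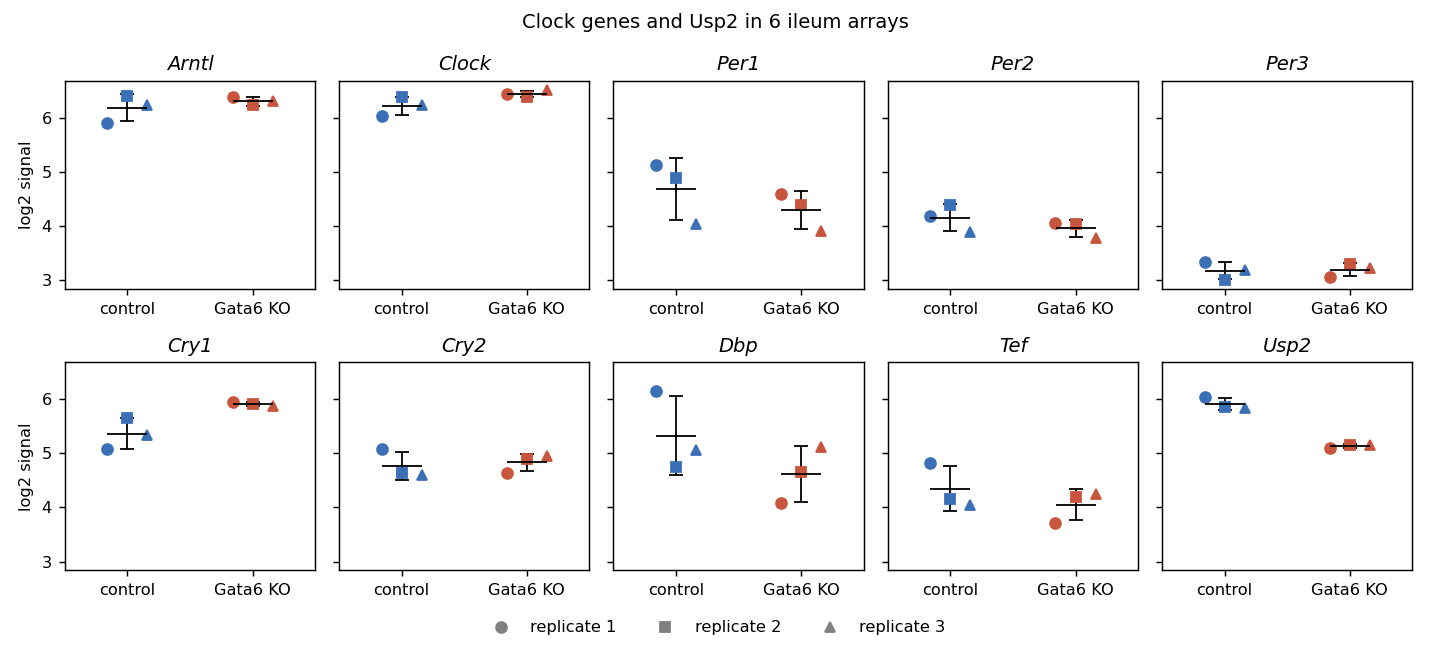
Log2 signal (vertical axis) of each of the 10 genes in the 3 control arrays (blue) and the 3 arrays labelled Gata6 KO (red), with marker shapes for the replicate number, horizontal bars for group means and error bars for SD. Usp2 lies between 5.84 and 6.04 in controls and between 5.10 and 5.16 in KO-labelled arrays, while the groups overlap for 7 genes; levels of different genes are not comparable between panels.

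Of the repressor genes, Cry1 came closest to a call in the upward direction. CRY1 protein binds and silences the ARNTL and CLOCK pair. Its transcript read 5.09, 5.66 and 5.33 in controls and 5.95, 5.92 and 5.87 in KO-labelled arrays. All 3 KO-labelled arrays lay above every control, and the controls were spread over 0.57 against 0.08 in the KO-labelled arrays. The log2 fold change of 0.55 (SE 0.14) did not pass, at a limma adjusted p of 0.0570. Without control replicate 2 it was 0.70 and passed (limma adjusted p = 0.0203), whereas the other 5 fits that leave out an array gave 0.108 to 0.171. Cry1 also passed under 4 alternatives: each array centred on its median, a filter on dim genes, an intensity trend with robust moderation, and array weights (0.0274 to 0.0313). Alternatives under which it did not pass included quantile normalization (0.0653), no moderation (0.192), and the lymphoid (0.085) or smooth muscle mean (0.538) as covariate. Its paralogue Cry2 read 5.07, 4.64 and 4.59 in controls and 4.64, 4.90 and 4.95 in KO-labelled arrays. The groups overlapped, with control replicate 1 the highest of all 6. The log2 fold change of Cry2 was 0.06 (SE 0.15, limma adjusted p = 0.834), with a 95% confidence interval from -0.29 to 0.41.

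The activators Arntl and Clock both had their lowest value in control replicate 1. Arntl read 5.91, 6.40 and 6.24 in controls and 6.38, 6.23 and 6.30 in KO-labelled arrays. The KO-labelled values lay inside the control range, and the log2 fold change was 0.12 (SE 0.13, limma adjusted p = 0.628). Clock read 6.04, 6.38 and 6.24 in controls and 6.44, 6.39 and 6.50 in KO-labelled arrays. Its groups did not overlap, by a margin of less than 0.01 between control replicate 2 and KO-labelled replicate 2. The log2 fold change of Clock was 0.22 (SE 0.10), and it did not pass (limma adjusted p = 0.230; 95% confidence interval -0.02 to 0.47). In all, the groups did not overlap for 3 of the 10 members, where 29.3% of all genes showed this. In 2 of them, Cry1 and Clock, the KO-labelled arrays were the higher ones (16.8% of all genes), and in 1, Usp2, the lower ones (12.6%).

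The Per genes, which encode the period proteins that carry CRY into the repressor complex, were not called. Per1, which glucocorticoid hormone also induces, read 5.12, 4.89 and 4.03 in controls and 4.59, 4.39 and 3.91 in KO-labelled arrays. The third replicate was the lowest of each group, and the log2 fold change of -0.38 (SE 0.30) had a limma adjusted p of 0.482. Per2 read 4.18, 4.38 and 3.89 in controls and 4.05, 4.03 and 3.78 in KO-labelled arrays, with replicate 3 again lowest in each group. Its log2 fold change was -0.20 (SE 0.14, limma adjusted p = 0.433). Per3 read 3.33, 3.01 and 3.19 in controls and 3.06, 3.29 and 3.23 in KO-labelled arrays. Each of these values lay below the median signal of its array (3.33 to 3.44), so that little can be read from Per3, whose group means differed by 0.02 (SE 0.11, limma adjusted p = 0.939).

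Of the 10 members, Dbp had the widest range within either group. It read 6.14, 4.75 and 5.07 in controls and 4.08, 4.65 and 5.11 in KO-labelled arrays. Control replicate 1 was the highest and KO-labelled replicate 1 the lowest, and the other 4 arrays of both groups lay between 4.65 and 5.11. The log2 fold change of -0.71 (SE 0.39) was close in size to that of Usp2 but did not pass (limma adjusted p = 0.312; 95% confidence interval -1.62 to 0.21). Without control replicate 1 it was -0.30 (SE 0.29, adjusted p = 0.617). Tef read 4.82, 4.16 and 4.05 in controls and 3.72, 4.19 and 4.24 in KO-labelled arrays, with the same arrays highest and lowest. Its log2 fold change was -0.29 (SE 0.23, limma adjusted p = 0.473), and -0.06 without control replicate 1. Over the 10 members the median log2 fold change was -0.09, against -0.0043 over all genes.

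**Figure D2:**
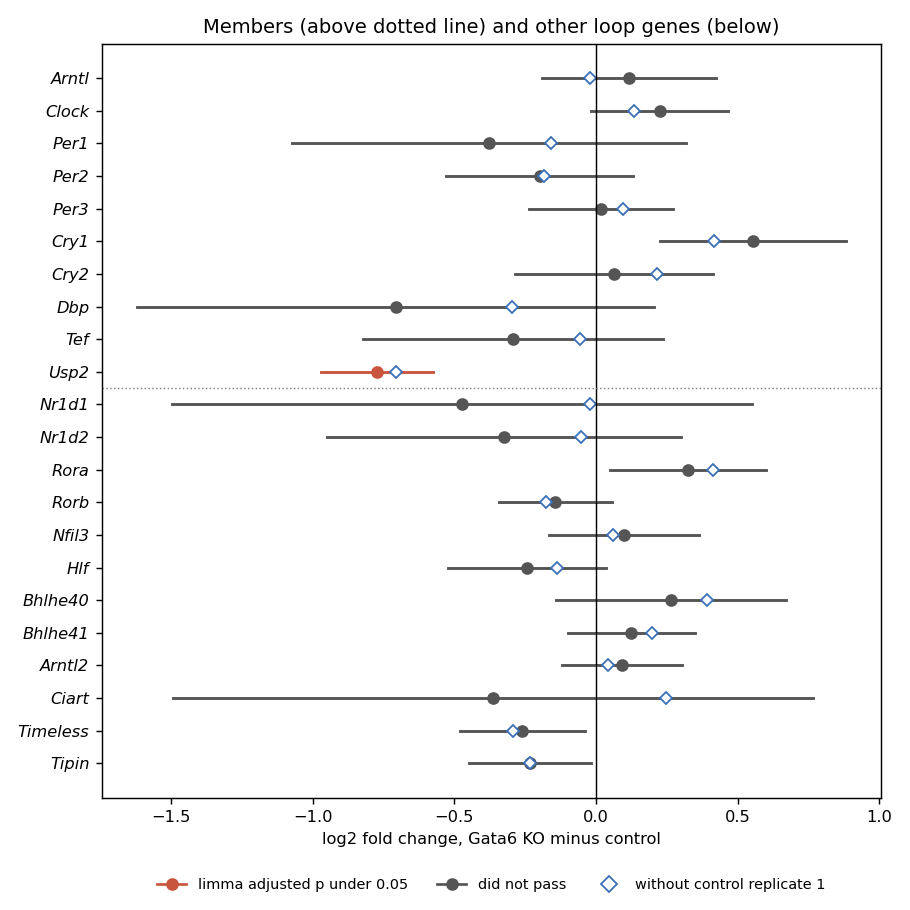
Log2 fold change (horizontal axis, Gata6 KO minus control) of the 10 genes, above the dotted line, and 12 further genes of the clock loops, below it; filled circles are estimates from all 6 arrays, bars the 95% confidence intervals, and open diamonds the estimates without control replicate 1. Usp2, in red, is the gene that passed, and the diamonds of Dbp, Nr1d1 and Ciart lie far from their circles.

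The other genes of the same loops did not pass either. Of 14 listed, 12 had a probe set of their own. None was called in either direction, where 8.24% of all genes were, and the median log2 fold change was -0.19. An unadjusted p under 0.05 was found for 3 of the 12, where 4928 of all 19938 genes had one. Those 3 were Rora, an activator of Arntl, at 0.33 (SE 0.12, limma adjusted p = 0.145), and Timeless at -0.26 (SE 0.09, 0.145) and Tipin at -0.23 (SE 0.09, 0.178), whose proteins act together at DNA replication forks. Nr1d1, the REV-ERB alpha gene, read 8.01, 6.61 and 6.71 in controls and 6.03, 6.59 and 7.28 in KO-labelled arrays. Its 6 arrays stood in the same order as for Dbp, from KO-labelled replicate 1 at the bottom to control replicate 1 at the top. The log2 fold change of Nr1d1 was -0.47 (SE 0.44, limma adjusted p = 0.555), and -0.02 without control replicate 1. Nr1d2, its paralogue, read 6.36, 5.60 and 5.48 in controls and 5.09, 5.58 and 5.79 in KO-labelled arrays, and its log2 fold change was -0.33 (SE 0.27, limma adjusted p = 0.50). Nfil3 differed by 0.10 on the log2 scale (SE 0.11, limma adjusted p = 0.635).

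Some of these genes, but not all, differed widely between mice of the same group. In control replicate 1, Ciart read 4.48 against 2.51 and 2.80 in the other controls. A second, dimmer probe set of Ciart gave 3.99 against 2.13 and 2.67. In the KO-labelled arrays the brighter probe set of Ciart read 2.90, 2.59 and 3.21. On 5 arrays, all but control replicate 1, this probe set read below the array median. The sizes of its differences are thus limited by signal over background. The gap between control replicate 1 and the mean of the other 2 controls was 1.83 for Ciart, and 0.0802% of all genes had a gap as large in either direction. It was 1.36 for Nr1d1 (0.155% of genes), 1.23 for Dbp (0.196%), 0.82 for Nr1d2 (0.672%), 0.71 for Tef (1.13%) and 0.66 for Per1 (1.39%). The gap was in the opposite direction for Arntl, at -0.41 (6.01%), Cry1, at -0.41 (6.29%), and Clock, at -0.27 (17.2%). Cry2 had a gap of 0.45 (4.51%) and Bhlhe40 one of 0.38 (7.74%). It was small for Per3, at 0.23 (23.3%), Nfil3, at -0.12 (51.2%), Timeless, at -0.10 (58.4%), and Per2, at 0.05 (77.7%), and for Tipin 99.1% of genes had one as large. For Usp2 it was 0.20, and 29.8% of genes had one as large. Of the 22 genes, the 10 members and 12 loop genes, 10 had a gap among the largest 10% of all genes, 8 of them upward and 2, Arntl and Cry1, downward, and 12 did not. The comparison of control replicate 1 was not planned before the values were seen, so these shares and this tally describe and do not test. For Per1 the gap came mostly from control replicate 3, at 4.03, since control replicates 1 and 2 read 5.12 and 4.89.

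**Figure D3:**
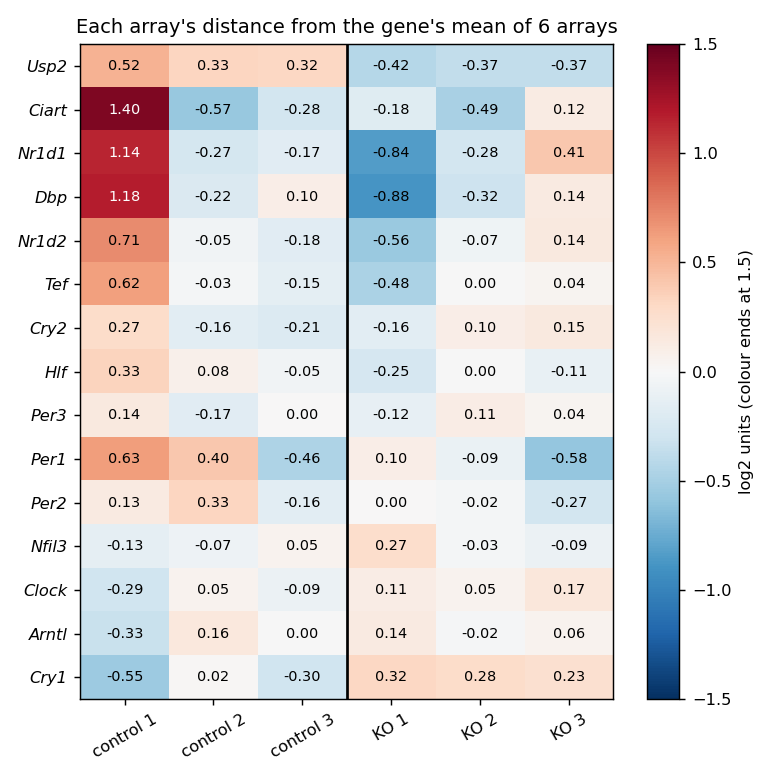
Distance of each array from the mean of the 6 arrays, in log2 units, for the 10 genes and Ciart, Nr1d1, Nr1d2, Hlf and Nfil3 (red above the mean, blue below; columns are the 3 control and the 3 KO-labelled mice). Control replicate 1 is above the mean by 1.40 for Ciart, 1.18 for Dbp and 1.14 for Nr1d1 and below it for Arntl, Clock and Cry1, while Usp2 splits by group.

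Among the KO-labelled arrays, replicate 1 was the lowest for 5 of the 10 members, Dbp, Tef, Cry2, Per3 and Usp2, and for Nr1d1 and Nr1d2. The range over these 3 arrays was 1.02 for Dbp, a range reached by 0.642% of all genes, and 0.52 for Tef (6.39%). For Usp2 the range was 0.06, which 91.3% of all genes reached. The 3 KO-labelled mice thus differed widely in Dbp at nearly equal Usp2. At a Dbp signal of 5.07 in control replicate 3 and 5.11 in KO-labelled replicate 3, Usp2 read 5.84 and 5.16. Within the groups the genes were alike in part. The KO-labelled arrays rose in the same order for Usp2 as for Dbp, and control replicate 1 was the highest array for both. Whether the difference in Usp2 is separate from that in Dbp was not tested.

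**Figure D4:**
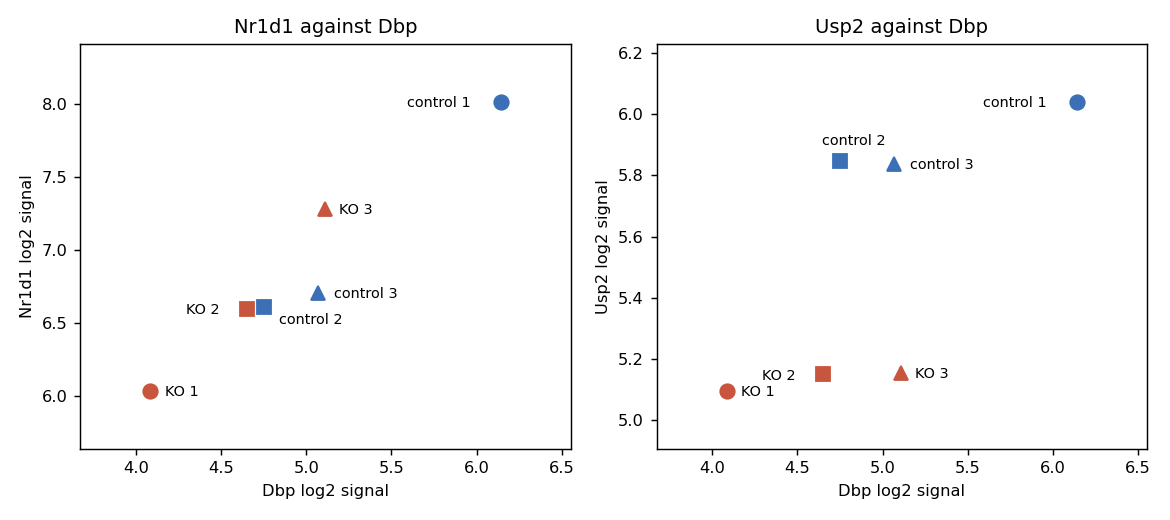
Log2 signal of Nr1d1 (left) and Usp2 (right) against that of Dbp in each mouse, controls in blue and KO-labelled mice in red, with shapes for the replicate number. Nr1d1 follows Dbp through both groups, from 6.03 in KO-labelled replicate 1 to 8.01 in control replicate 1, while Usp2 forms a band per group.

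Likeness to a member was measured as Pearson's r over the 6 arrays among genes whose SD over the arrays was at least 0.5 (652 for Usp2, 651 for Dbp), and is a description of points that share the group difference. The 5 genes most like Usp2 were Dnm1 (r = 0.996), Prodh (0.993), Tmem161b (0.991), Slc35f2 (0.988) and Pla2g5 (0.987). Dnm1, which encodes the membrane-cutting GTPase dynamin 1, read 6.17, 5.84 and 5.96 in controls and 4.46, 4.65 and 4.68 in KO-labelled arrays. Prodh, which encodes the first enzyme of proline breakdown, fell by 0.92 (SE 0.11). Most opposite were Noxa1, an activator of NADPH oxidase (r = -0.996), Cyp2c65 and Sh3kbp1 (both r = -0.994). Of the 5 genes most like Dbp, Nr1d1 came first (r = 0.968 over all arrays, 0.988 for deviations from the group means). Bco2, which encodes a carotenoid-cleaving enzyme, followed (0.965 and 0.985) and read 4.98, 3.74 and 4.17 in controls and 2.83, 3.47 and 3.66 in KO-labelled arrays. Chac1 (0.888), the sterol sensor partner Insig1 (0.868) and Bhmt (0.847) came next. Most opposite to Dbp were the antibody gene Igha (-0.925), Apol7c (-0.912) and the chaperone Dnajb1 (-0.892).

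Genes that act on clock proteins or follow the clock were set beside the members. Of 18 measured genes of clock protein turnover 2 rose (4.99% of all genes did), 1 fell (3.25% of all genes) and 15 did not pass. Their median log2 fold change was 0.06. Prkaa1 and Prkaa2, the catalytic subunits of AMP-activated protein kinase, which marks CRY1 for degradation, rose by 0.61 (SE 0.11, limma adjusted p = 0.0176) and 0.64 (SE 0.12, 0.0206). Prkaa1 lost its call without control replicate 1 or 3 or KO-labelled replicate 2 or 3 (0.0592 to 0.0811), and Prkaa2 without control replicate 2 or 3 or any KO-labelled replicate (0.0568 to 0.0855). Fbxl21, a ubiquitin ligase subunit that acts on CRY, fell by 0.47 at values below the array medians, a call that none of the 6 fits leaving out an array kept (0.0721 to 0.133). Of 12 measured genes that are rhythmic in many tissues none was called, where 8.24% of all genes were, and the median was 0.04. An unadjusted p under 0.05 was found for 4 of the 12, where 4928 of all 19938 genes had one. Of 10 intestinal transport and lipoprotein genes with known daily rhythms, 7 fell (3.25% of all genes did) and 1 rose (4.99%), with a median of -1.15. The lower count was 4 without KO-labelled replicate 1 or 2 and 6 or 7 without any other array, and the gene that rose, Abcb1a, kept its call in 1 of these 6 fits. Of the genes that fell, Slc2a5 and Apob kept the call in 3 of the 6 and Apoa4 in 4; these 4 genes were named after their values were seen. Mttp, which loads lipid onto lipoproteins, fell by 4.18 (SE 0.18), the peptide transporter Slc15a1 by 2.08 (SE 0.15), the glucose transporter Slc5a1 by 1.08 (SE 0.08), while Abcc2, a pump of the apical membrane, fell by 2.94 (SE 0.24); each was called in all 6 fits that leave out an array.

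Usp2 was also set beside its family and the genes of its known targets. Of 52 other ubiquitin-specific peptidase genes 1 rose (4.99% of all genes did), 1 fell (3.25%) and 50 did not pass. Usp6nl and Usp46os2, which share the symbol's first letters but are no such peptidase genes, were left out after the values were seen. The family's median log2 fold change was 0.02. Usp18, the interferon-induced family member that removes ISG15, read 7.20, 6.25 and 7.52 in controls and 4.14, 5.62 and 4.46 in KO-labelled arrays. It fell by 2.25 (SE 0.44, limma adjusted p = 0.0254), a call lost without control replicate 1 or 3 or KO-labelled replicate 1 or 3 (0.0887 to 0.101). Usp53, a tight junction protein gene, rose by 0.85 (SE 0.12, limma adjusted p = 0.00777), and kept the call in all 6 such fits. Of 11 measured genes of targets and partners of USP2, 3 rose (4.99% of all genes did) and none fell (3.25%), with a median of 0.12. Scnn1a, the alpha subunit of the epithelial sodium channel, whose surface level USP2 can raise, read 3.998, 4.09 and 4.12 in controls and 5.29, 5.40 and 5.17 in KO-labelled arrays. It rose by 1.22 (SE 0.09, limma adjusted p = 7.43e-04), the reverse of the direction of Usp2. Nr3c2, the mineralocorticoid receptor gene, rose by 0.71 (SE 0.14, limma adjusted p = 0.0248) and Mylip, whose protein degrades the LDL receptor, by 0.41 (SE 0.08, 0.0275). Nr3c2 kept its call only in the fit without control replicate 1, and Mylip only in that without control replicate 2. Scnn1b and Scnn1g, the other channel subunits, read below the array medians on all 6 arrays.

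Glucocorticoid response genes were examined because that hormone induces Per1. None of 12 was called, where 8.24% of all genes were, and the median log2 fold change was -0.05. None had an unadjusted p under 0.05, where 4928 of all 19938 genes had one. Their summed level, as the mean log2 signal of the list, was lowest in control replicate 3, at 5.92, against 6.59 in replicate 1, 6.28 in replicate 2 and a range of 6.20 to 6.31 over KO-labelled arrays. Fkbp5, named after its values were seen, read 7.20, 7.03 and 5.56 in controls and 7.45, 7.26 and 7.41 in KO-labelled arrays. Tsc22d3, also named after its values were seen, read 4.92, 4.97 and 4.35 in controls and 4.63, 4.52 and 4.07 in KO-labelled arrays. Tsc22d3, like Per1 and Per2, was thus lowest in replicate 3 of each group, whereas Fkbp5 was low in control replicate 3 alone. Over the rest of the list, Zbtb16, Errfi1 and Cebpd were lowest in replicate 3 of each group. Sgk1, Dusp1 and Klf9 were lowest in replicate 3 among controls only, and Mt1, Mt2, Nfkbia and Ddit4 had their lowest control value in replicate 2. Control replicate 3 is also the array with the signals of a male, and the 2 cannot be told apart.

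Markers of the tissue's cell types were set beside the fall of Usp2. The mean log2 signal of 10 smooth muscle genes was 7.56 to 7.73 in controls and 7.74 to 8.12 in KO-labelled arrays; 1 of them, Tagln, rose, and 6 were higher without overlap between the groups, where 16.8% of all genes were. That mean as a covariate, with which Usp2 lost its call, left 106 calls among all genes in place of 1643, 50 higher and 56 lower. Since the mean did not overlap between the groups, the fit cannot well separate it from the group. The fold change of Usp2 was -0.77 without the covariate and -0.78 with it, while its SE rose from 0.08 to 0.15. Prkaa1, Prkaa2, Fbxl21, Usp18, Usp53, Nr3c2 and Mylip lost their calls with it (adjusted p 0.229 to 0.568), and Scnn1a, Mttp, Slc15a1, Slc5a1 and Abcc2 kept theirs. Without moderation of the variances the same 7 genes lost the call, as did Abcc2 (0.0506), while Usp2 kept it (0.0377). Of the transport genes, Slc2a5, Apoa4, Apob and Abcb1a lost theirs both with the covariate (0.125 to 0.583) and without moderation (0.107 to 0.142). The 13 epithelial genes had a mean of 9.34 to 9.49 in controls and 9.40 to 9.52 in KO-labelled arrays, with Krt19 higher and Vil1 lower. Tagln and Vil1 each kept the call in 2 of the 6 fits that leave out an array and Krt19 in none. The 12 lymphoid genes ranged from 3.71 to 3.81 and from 3.61 to 3.82, and none was called, where 8.24% of all genes were. The 7 fibroblast genes ranged from 7.44 to 7.82 and from 7.86 to 8.12. None was called, but 3 were higher and none lower without overlap between the groups, where 16.8% and 12.6% of all genes were. Their median log2 fold change was 0.41, against 0.35 for the smooth muscle genes. The 6 neuron and glia genes ranged from 3.46 to 3.69 and from 3.80 to 3.92 with Stmn2 higher. Control replicate 1 was the lowest of the 3 controls for 9 of the 13 epithelial genes and the highest for none. With the lymphoid mean as covariate instead, the fold change of Usp2 was -0.77 (SE 0.095, limma adjusted p = 0.00878) and the call was kept. The part of tissue makeup in the values of Usp2 and of control replicate 1 was not tested beyond these covariates. The smooth muscle covariate cannot decide it.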

How the data were processed

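Total RNA of 6 ilea was hybridised to Affymetrix mouse Gene 1.0 ST arrays, 1 per mouse. The deposited values are log2 signals of probe sets; the authors used Affymetrix Expression Console, version unnamed, per the submitters' processing notes. How they corrected background, normalized and summarised probes was not given in the sources used here. That the scale is log2 was judged from the spread of values.

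Of 35557 probe sets, 21789 carry 1 gene symbol in the platform annotation; the brightest per gene by mean over the 6 arrays was used, which left 19938 genes with no filter on dim ones. Each of the 10 members has 1 probe set. The test was limma 3.58.1 under R 4.3.3 (lmFit, eBayes, Gata6 KO minus control, two-sided), with Benjamini-Hochberg adjustment over all genes and a threshold of 0.05; SE is the moderated one. An exact permutation test of 3 against 3 cannot go below p = 0.1 and was not used. The number of arrays limits the precision.

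Members and the 12 gene lists, 14 loop genes among them, were chosen with earlier results of these data known. Named were all members, loop genes that passed together with Nr1d1, Nr1d2 and Nfil3, up to 4 genes per other list that passed, up to 3 peptidases per direction, and genes most like Usp2 and Dbp by r. Other loop genes were named for an unadjusted p under 0.05, or, as Ciart and Hlf, after their values were seen. Alternatives covered scaling, dim genes, probe sets, moderation, array weights, a replicate block, left-out arrays and tissue covariates. Promoters come from RefSeq, build GRCm38.p6. Figures were drawn with matplotlib 3.10.9.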

Additional observations from a re-analysis of the deposited data

How the results depend on the processing

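The call of Usp2 held under 16 of 18 alternatives; with the smooth muscle mean as covariate, and without control replicates 1 and 3 together, 0 members were lower (fold changes of -0.78 and -0.71, adjusted p = 0.107 and 0.0913). The latter leaves 1 control, whose spread is assumed to be that of the KO-labelled arrays, so it says little of stability. Among the 16, taking every probe set on its own or the second brightest could not change the values of Usp2, which has 1 probe set. The count of higher members was 1, Cry1, with each array centred on its median (adjusted p = 0.0275), with only genes above the median of gene means (0.0274), with intensity trend and robust moderation (0.0292) and with array weights (0.0313), and 0 to 1 over the fits that leave out 1 array; the count of lower members was 1 in all 6 of these. Loop genes gave 0 calls in each direction under every alternative. Directions turned for genes that were not called. Over the 6 fits that leave out 1 array, the log2 fold change ran from -0.020 to 0.23 for Arntl (lowest without control replicate 1), from -0.064 to 0.096 for Per3 (lowest without control replicate 2), from -0.025 to 0.21 for Cry2 (lowest without control replicate 3), from -0.0092 to 0.17 for Nfil3 (lowest without Gata6 KO replicate 1) and from -0.74 to 0.25 for Ciart (highest without control replicate 1). Against the 1 control left without control replicates 1 and 3, Arntl was -0.10, Nr1d1 0.030 and Ciart 0.39. With the smooth muscle covariate, Per3 was -0.053, Cry2 -0.078, Bhlhe40 -0.10, Arntl2 -0.039 and Ciart 0.12. The cause was not tested. With the replicate number as a block, Usp2 had an adjusted p of 0.0137, Cry1 0.0725, Mylip 0.052, Usp18 0.0598 and Nr3c2 0.0639; same-numbered arrays deviated together at r = 0.04, -0.04 and 0.15, which does not establish a pairing; whether they share a day or batch was not tested. Members near the array medians, such as Per3, and the loop gene Ciart are limited by signal over background.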
